A study of Sus scrofa with 3 samples.

Results

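The miRNAs described are 6 mature microRNAs of the imprinted DLK1-DIO3 cluster of the pig, listed as ssc-miR-127, ssc-miR-136, ssc-miR-299, ssc-miR-369, ssc-miR-370 and ssc-miR-758. They were taken by name from the liver read counts, which hold 405 distinct miRNA names once names that repeat another name's reads are left out. The libraries came from male pigs at postnatal day 90. There was 1 library from an Enshi black pig liver, 1 from a Chinese wild boar liver and 1 from a Large White pig liver, and no treatment is labelled. The labels speak of 3 pigs and do not say how animals map to libraries. A difference between libraries can be one between breeds, between single animals or in how each library was prepared and sequenced. The data cannot tell these apart. Intervals below are exact at 95% and cover only counting error, and no p-value is given.

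The DLK1-DIO3 locus is an imprinted region in which the protein-coding genes DLK1, RTL1 and DIO3 are expressed from the paternal chromosome. The long noncoding RNA MEG3 and a large set of miRNAs are expressed from the maternal one. In mouse these miRNAs are cut from long transcripts that run through the region, are abundant in the embryo and placenta, and are low in adult liver. In sheep the callipyge mutation, which causes muscle overgrowth, lies in the same locus. Read counts carry no allele information, so imprinting itself cannot be read from these data.

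In the RefSeq gene list for Sscrofa 11.1, 2 of the 6 members matched an entry, MIR127 and MIR136. Both lie after DLK1, MEG3 and MIR493, inside the span of RTL1, with MIR432 listed between them. The submitters' processing notes name another build, Sscrofa 10.2, so no coordinates are given. Each member has a precursor of its own (ssc-mir-127, ssc-mir-136 and so on), and none has a second arm listed, so the balance between arms could not be measured and the names do not say which arm was counted. The summed counts of all 6 were whole numbers, so none showed the fractions that reads shared with another name leave. miR-369 stands on 2 rows with equal counts for the same precursor, and the rows were added. The sums were the odd numbers 117, 199 and 55 in the Enshi black, wild boar and Large White libraries. Each row alone therefore held a fraction, as reads split over rows leave.

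The cluster was a minor part of the liver miRNA pool in each library, and it was largest in the wild boar library. The 6 members had 2100 reads in the Enshi black library, 4329 in the wild boar library and 857 in the Large White library. That is 0.0272% of all miRNA reads for Enshi black (0.0260 to 0.0284), 0.0553% for wild boar (0.0537 to 0.0570) and 0.0117% for Large White liver (0.0109 to 0.0125). The liver miRNA miR-122, which marks hepatocytes, took 34.2% of reads in Enshi black, 39.5% in wild boar and 41.4% in Large White liver. After scaling by the trimmed mean of M-values (TMM), which sets the bulk of miRNAs level between libraries, the 6 members summed to 226.1 counts per 1000000 (CPM) in the Enshi black library, 513.5 CPM in the wild boar library and 151.1 CPM in the Large White library. The wild boar sum was 3.40-fold the Large White sum (3.16 to 3.66) and the Enshi black sum 1.50-fold the Large White sum (1.38 to 1.62). Most of that came from 1 miRNA: miR-127 made up 87.0% of the difference between the wild boar and Large White sums. Without it the remaining 5 members summed to 89.5 CPM in the Enshi black library, 123.5 CPM in the wild boar library and 76.3 CPM in the Large White library. Their wild boar sum was 1.62-fold that of the Large White library (1.44 to 1.81).

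In mouse miR-127 and miR-136 lie antisense to RTL1, a retrotransposon-derived gene, and match its mRNA in full. miR-127 was the most abundant member in each library. It had 1269 reads in the Enshi black library, 3288 in the wild boar library and 424 in the Large White library. In TMM-scaled CPM that is 136.6 (129.2 to 144.3) in the Enshi black library, 390.0 (376.8 to 403.6) in the wild boar library and 74.8 (67.8 to 82.2) in the Large White library. The 3 intervals do not overlap, and the order is wild boar, Enshi black, Large White. By rank among the 405 names, miR-127 stood at place 122 in the Enshi black library, 90 in the wild boar library and 141 in the Large White library. It was 5.22-fold higher in wild boar than in Large White liver (4.71 to 5.79), and 2.86-fold lower in Enshi black than in wild boar liver (2.68 to 3.05). The Enshi black level was 1.83-fold that of the Large White library (1.64 to 2.04), short of 2-fold.

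miR-136 was not highest in the wild boar library. It had 320 reads in the Enshi black library, 229 in the wild boar library and 302 in the Large White library, or 34.4 CPM (30.8 to 38.4), 27.2 CPM (23.8 to 30.9) and 53.2 CPM (47.4 to 59.6) in the same libraries after TMM scaling. The Large White library was the high one, and the Enshi black and wild boar intervals of this level just touch. miR-136 was 1.96-fold lower in wild boar than in Large White liver (1.65 to 2.34), just short of 2-fold, and 1.55-fold lower in Enshi black than in Large White liver (1.32 to 1.81). The direction of this last difference depends on scaling, since per library total miR-136 stood at 41.4 CPM in the Enshi black and 41.1 CPM in the Large White library. Between the Enshi black and wild boar libraries its ratio was 1.27 (1.07 to 1.51).

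**Figure D1:**
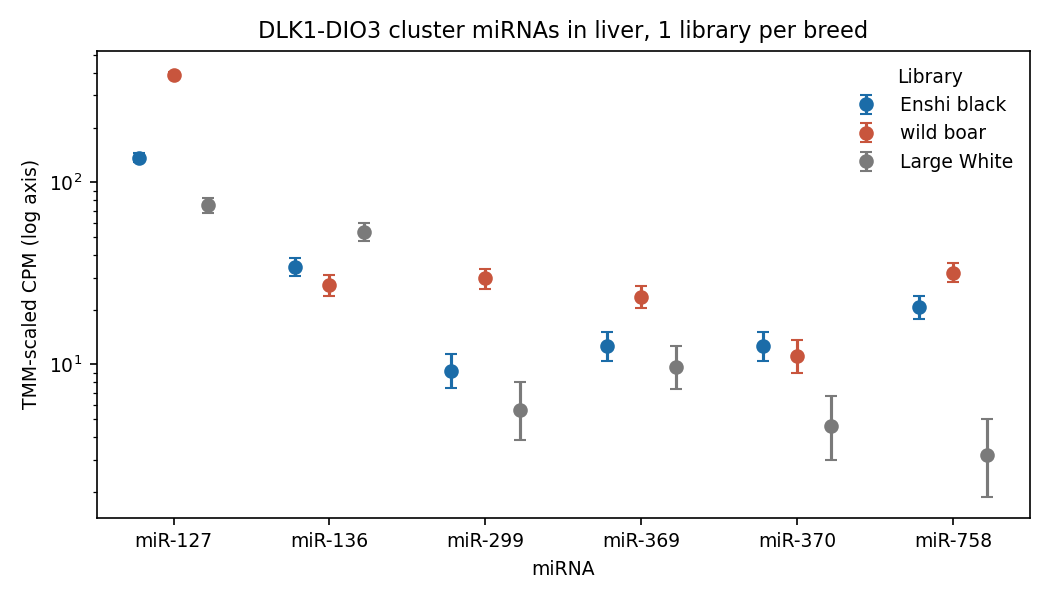
TMM-scaled CPM (log axis) of the 6 members in the Enshi black, wild boar and Large White libraries. Points are single libraries and bars are exact 95% counting intervals. miR-127 is highest in the wild boar library at 390.0 CPM, while miR-136 is highest in the Large White library at 53.2 CPM.

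miR-299 had 86 reads in the Enshi black library, 250 in the wild boar library and 32 in the Large White library. Its TMM-scaled levels were 9.26 CPM (7.40 to 11.4), 29.7 CPM (26.1 to 33.6) and 5.64 CPM (3.86 to 7.96) in that order. Only the wild boar library stood clearly apart. miR-299 was 5.26-fold higher in wild boar than in Large White liver (3.63 to 7.85), nearly the same ratio as miR-127, and 3.20-fold lower in Enshi black than in wild boar liver (2.50 to 4.14). The Enshi black level was 1.64-fold the Large White level, with an interval of 1.08 to 2.55.

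miR-369, whose 3p form is known in human cells for activating TNF translation in resting cells, had 117, 199 and 55 reads in the Enshi black, wild boar and Large White libraries. These are 12.6 CPM in the Enshi black library (10.4 to 15.1), 23.6 CPM in the wild boar library (20.4 to 27.1) and 9.70 CPM in the Large White library (7.31 to 12.6). The wild boar library was again the high one, and the other two overlapped. miR-369 was 2.43-fold higher in wild boar than in Large White liver (1.80 to 3.34) and 1.87-fold lower in Enshi black than in wild boar liver (1.48 to 2.38). The ratio of Enshi black over Large White, 1.30, had an interval that held 1 (0.93 to 1.82).

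Like miR-127, miR-299 and miR-369, the members miR-758 and miR-370 were lowest in the Large White library. miR-758 represses the cholesterol exporter ABCA1 in human and mouse cells. It had 191 reads in the Enshi black library, 269 in the wild boar library and only 18 in the Large White library, or 20.6 CPM (17.7 to 23.7), 31.9 CPM (28.2 to 36.0) and 3.17 CPM (1.88 to 5.02) in the same order. The Large White level lies far from both others. miR-758 was 10.1-fold higher in wild boar than in Large White liver (6.24 to 17.2) and 6.48-fold higher in Enshi black than in Large White liver (3.99 to 11.2). Among the 208 miRNAs with a mean of at least 10 CPM before TMM scaling, these were the highest ratios of both comparisons. With 2.45 CPM of the Large White total, miR-758 passed that minimum through the other libraries, so its place is a description. Under the minimum, miR-323 had a higher wild boar over Large White ratio of 10.8, from 3 Large White reads. The Enshi black level of miR-758 was 1.55-fold lower than its wild boar level (1.28 to 1.88).

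miR-370, reported in human liver cells to repress CPT1A, an enzyme needed to burn fatty acids, had 117 reads in the Enshi black library, 94 in the wild boar library and 26 in the Large White library. Its levels were 12.6 CPM (10.4 to 15.1), 11.1 CPM (9.01 to 13.6) and 4.58 CPM (2.99 to 6.72) in that order. The Enshi black and wild boar levels overlapped, and their ratio of 1.13 had an interval that held 1 (0.85 to 1.50). It was 2.75-fold higher in Enshi black than in Large White liver (1.78 to 4.38) and 2.43-fold higher in wild boar than in Large White liver (1.56 to 3.91). In the Enshi black library it had the same count as miR-369, on separate rows.

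A member is called higher or lower where the ratio was at least 2-fold and its interval left out 1. In wild boar over Large White, 5 of the 6 members were higher and none was lower, against 11.5% higher and 13.5% lower among all 208 miRNAs. The members' median log2 ratio was 1.83, beside −0.02 over all 208. In Enshi black over Large White, miR-758 and miR-370 were higher and no member was lower, against 2.88% of the 208 miRNAs higher and 10.1% lower. The 2.88% are 6 miRNAs with these 2 among them. Their median was 0.79, beside −0.04 over all 208. In Enshi black over wild boar, miR-127 and miR-299 were lower and none was higher, against 6.25% of the 208 miRNAs lower and 6.25% higher. The median there was −0.77, beside −0.01 over all 208. Scaled to library totals instead, miR-369 (log2 ratio 1.01), miR-299 (1.35) and miR-127 (1.51) also passed 2-fold in Enshi black over Large White, so that 5 members were higher where 27.4% of all 208 miRNAs were. The 3 comparisons share libraries and are not independent of one another. The 6 members also come from 1 locus and are the cluster miRNAs that passed 10 mean CPM. miR-299, miR-369, miR-370 and miR-758, at 4.36, 7.49, 3.54 and 2.45 CPM of the Large White total, passed it through the other libraries, so these counts describe the members and give no support of their own.

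**Figure D2:**
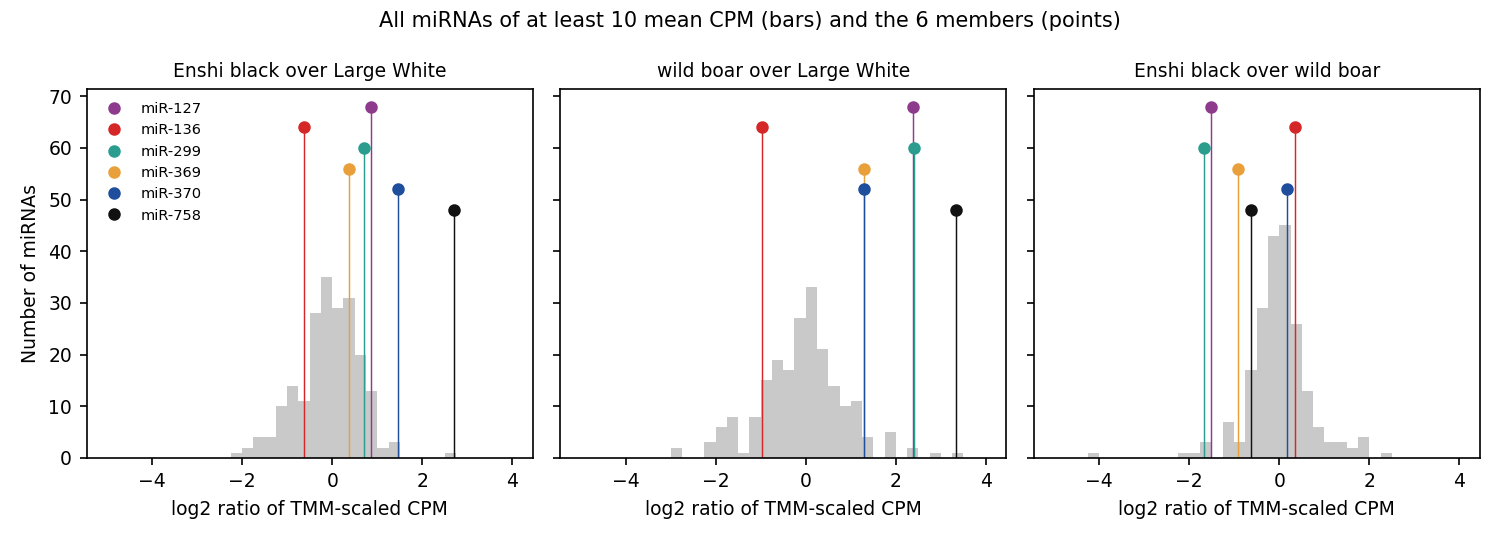
Number of miRNAs by log2 ratio of TMM-scaled CPM for the 208 miRNAs of at least 10 mean CPM (bars), with the 6 members as points on lines whose height has no meaning. In wild boar over Large White, miR-127, miR-299 and miR-758 lie at 2.38, 2.39 and 3.33, to the right of most miRNAs, and miR-136 at −0.97.

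The rest of the cluster was scarce. The counts name 14 further miRNAs with a number known from the mammalian cluster, none of which reached 10 mean CPM. 7 of them had at least 10 reads in at least 1 library, 4 had fewer reads, and miR-376b, miR-432-3p and miR-494 had 0 reads in each library, where a count of 0 allows up to 0.323 CPM in the Enshi black library, 0.356 CPM in the wild boar library and 0.529 CPM in the Large White library. The 2 nearest below the minimum were miR-382 and miR-376a-3p, with means of 8.47 and 8.35 CPM of the library total, while miR-370 was just above it at 10.2.

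The scarcer miRNAs fall under the same 10 mean CPM that the members passed, so their counts are a description as well. The 11 with a count include both arms of the miR-376a and miR-493 hairpins, and miR-381 and miR-487b had 0 reads in the Large White library. All 11 were higher in TMM-scaled CPM in wild boar than in Large White liver, where 45.9% of the 109 counted miRNAs under 10 mean CPM were. All 11 were also lower in Enshi black than in wild boar liver, where 56.0% of the 109 were, although on library totals 1 of them was higher. In Enshi black over Large White, 8 of the 11 were higher, against 45.0% of the 109. With the members included, 16 of 17 cluster miRNAs stood higher in wild boar than in Large White liver, and miR-136 was the exception. Among all 317 miRNAs with a count, 47.9% were higher in this comparison. Several of these rest on fewer than 10 reads, so single ratios are imprecise even where the direction is shared. miR-487b had 2 reads, or 0.215 CPM, in the Enshi black library and 2 reads, or 0.237 CPM, in the wild boar library. Both levels lie under the floor of 0.529 CPM for a count of 0 in the Large White library. The direction of miR-487b against that library is therefore not settled, though it is counted as higher above.

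miR-382 had 60 reads in the Enshi black library, 120 in the wild boar library and 17 in the Large White library. It was 4.75-fold higher in wild boar than in Large White liver (2.85 to 8.42) and 2.15-fold higher in Enshi black than in Large White liver (1.24 to 3.94). miR-432-5p, from the hairpin between miR-127 and miR-136, had 27, 78 and 13 reads in the Enshi black, wild boar and Large White libraries, and was 4.04-fold higher in wild boar than in Large White liver (2.23 to 7.92).

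miR-376a-3p belongs to a family known in human and mouse for A-to-I editing of its precursors. It had 59, 82 and 51 reads in the Enshi black, wild boar and Large White libraries, and its wild boar over Large White ratio of 1.08 had an interval that held 1 (0.75 to 1.57). It was the lowest of these ratios among the scarcer cluster miRNAs with at least 10 reads in 1 library. Its Enshi black over Large White log2 ratio of −0.50 became 0.14 on library totals.

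miR-323 had 23, 48 and 3 reads in the Enshi black, wild boar and Large White libraries, a wild boar over Large White ratio of 10.8 with a wide interval (3.47 to 54.0). miR-411 had 13, 29 and 2 reads in the same order, a ratio of 9.75 (2.47 to 84.4). Both were highest in the wild boar library, with ratios that are poorly determined. miR-376a-5p with 5, 12 and 2 reads and miR-493-3p with 3, 10 and 3 reads had intervals that held 1 in this comparison. miR-381 had 7 reads in the Enshi black library, 9 in the wild boar library and 0 in the Large White library.

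**Figure D3:**
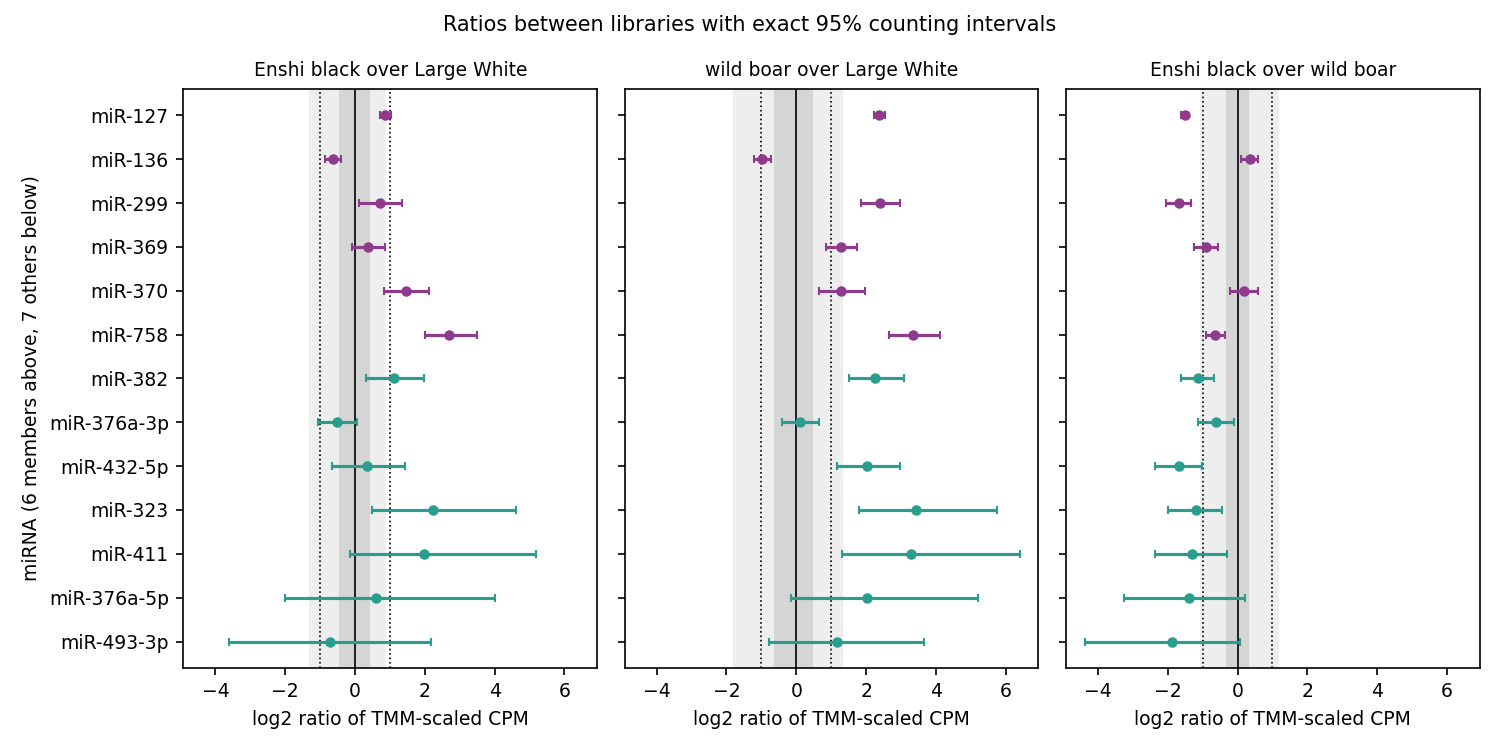
log2 ratios of TMM-scaled CPM for the 6 members and the 7 further cluster miRNAs with at least 10 reads in 1 library, with exact 95% counting intervals. Light and dark grey bands hold the central 90% and 50% of the 208 miRNAs of at least 10 mean CPM, and dotted lines mark 2-fold. In the middle panel miR-136 is the 1 miRNA left of zero, at −0.97, and miR-376a-3p lies at 0.11.

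Ratios between members of the same library do not depend on scaling between libraries, so they show how the make-up of the cluster reads differed. The share of miR-127 among the reads of the 6 members was 60.4% in the Enshi black library (Clopper-Pearson interval 58.3 to 62.5), 76.0% in the wild boar library (74.7 to 77.2) and 49.5% in the Large White library (46.1 to 52.9). The share of miR-136 was 15.2% in the Enshi black library (13.7 to 16.8), 5.29% in the wild boar library (4.64 to 6.00) and 35.2% in the Large White library (32.0 to 38.5). Together miR-127 and miR-136 held most of the reads, and the Large White library had the share of miR-136 highest and that of miR-127 lowest.

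The share of miR-758 was 9.10% in the Enshi black library (7.90 to 10.4), 6.21% in the wild boar library (5.51 to 6.97) and 2.10% in the Large White library (1.25 to 3.30). miR-370 held 5.57%, 2.17% and 3.03% in these libraries, miR-369 held 5.57%, 4.60% and 6.42%, and miR-299 held 4.10%, 5.78% and 3.73%. The wild boar and Large White intervals of the miR-369 share overlap (3.99 to 5.26 and 4.87 to 8.27), and so do the Enshi black and Large White intervals of the miR-299 share (3.29 to 5.03 and 2.57 to 5.23).

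**Figure D4:**
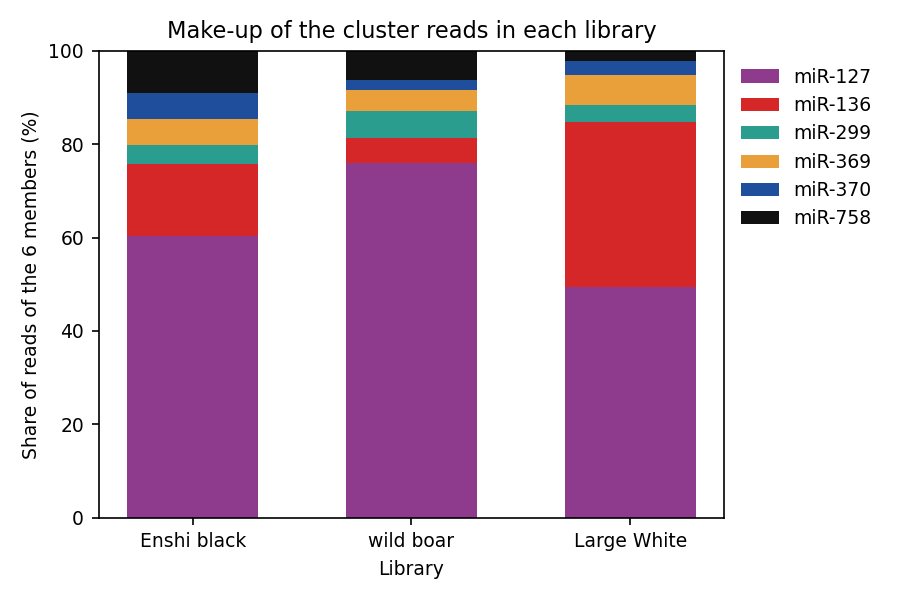
Share in percent of each member among the reads of the 6 members, stacked to 100, in the Enshi black, wild boar and Large White libraries. miR-136 takes 15.2%, 5.29% and 35.2% of the bars, and miR-127 takes 60.4%, 76.0% and 49.5%.

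Set against miR-127, miR-299 had overlapping proportions in the 3 libraries. There were 6.78 reads of miR-299 per 100 reads of miR-127 in the Enshi black library (5.38 to 8.44), 7.60 in the wild boar library (6.66 to 8.65) and 7.55 in the Large White library (5.10 to 10.8). The relative ratio of wild boar over Large White was 1.01, with an interval of 0.68 to 1.53. Set against the sum of the other 5 members instead, it was 1.58 (1.08 to 2.38). miR-382 had 4.73, 3.65 and 4.01 reads per 100 of miR-127 in the Enshi black, wild boar and Large White libraries, and a relative wild boar over Large White ratio of 0.91 (0.54 to 1.63).

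miR-136 differed most. It had 25.2 reads per 100 of miR-127 in the Enshi black library (22.2 to 28.5), 6.96 in the wild boar library (6.06 to 7.97) and 71.2 in the Large White library (61.2 to 82.7). Relative to miR-127 it was 10.2-fold lower in wild boar than in Large White liver (8.33 to 12.5), 2.82-fold lower in Enshi black than in Large White liver (2.32 to 3.44) and 3.62-fold higher in Enshi black than in wild boar liver (3.01 to 4.36). All 3 intervals leave out 1.

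The neighbouring miR-432-5p had 2.13, 2.37 and 3.07 reads per 100 of miR-127 in the Enshi black, wild boar and Large White libraries, with intervals that overlap. Relative to miR-136 it was 7.89-fold higher in wild boar than in Large White liver (4.22 to 15.9), while its Enshi black over Large White ratio to miR-136 of 1.96 had an interval that held 1 (0.96 to 4.21). miR-376a-3p was nearer to miR-136, with 4.65, 2.49 and 12.0 reads per 100 of miR-127 in the same libraries. Relative to miR-127 it was 4.82-fold lower in wild boar than in Large White liver (3.28 to 7.03). Its level ratio in this comparison was 1.08, with an interval that held 1.

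miR-758 had 15.1 reads per 100 of miR-127 in the Enshi black library, 8.18 in the wild boar library and 4.25 in the Large White library, so it was higher relative to miR-127 in both other libraries than in the Large White library, 3.54-fold (2.15 to 6.18) for Enshi black and 1.93-fold (1.18 to 3.34) for wild boar. miR-370 had 9.22, 2.86 and 6.13 reads per 100 of miR-127 in the Enshi black, wild boar and Large White libraries. Relative to miR-127 it was 3.22-fold higher in Enshi black than in wild boar liver (2.42 to 4.31). miR-369 had 9.22, 6.05 and 13.0 reads per 100 of miR-127 in the same libraries. Relative to miR-127, but not in level, miR-369 was 2.14-fold lower in wild boar than in Large White liver (1.53 to 2.96).

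**Figure D5:**
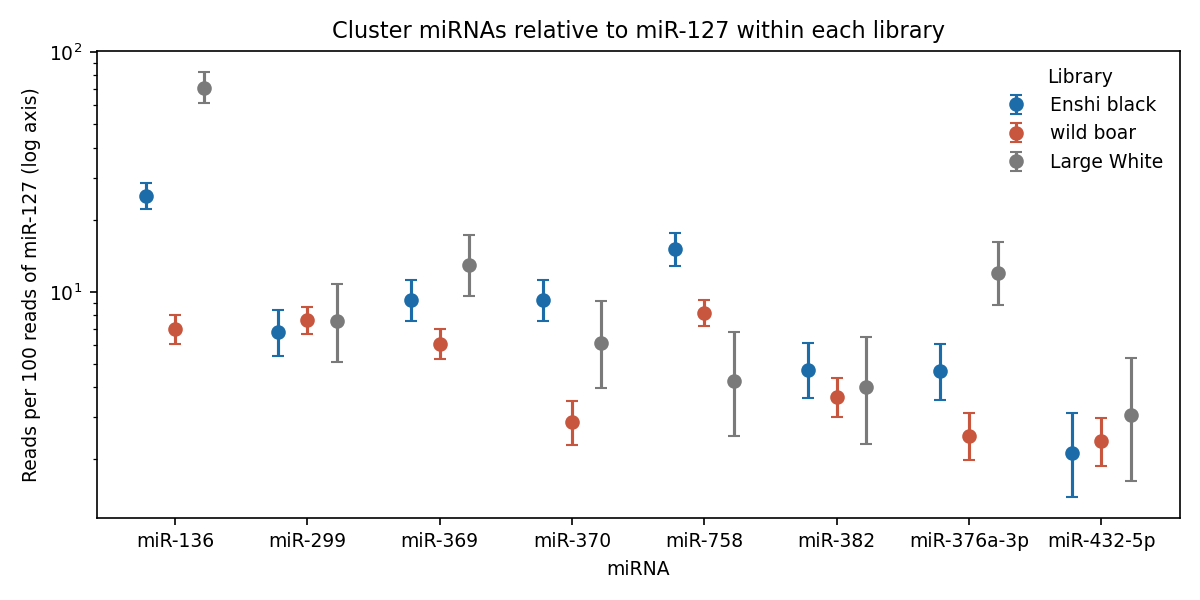
Reads of 5 members and of 3 further cluster miRNAs per 100 reads of miR-127 (log axis) within the Enshi black, wild boar and Large White libraries, with exact 95% counting intervals. miR-299 stays between 6.78 and 7.60, while miR-136 spans 6.96 in the wild boar library to 71.2 in the Large White library.

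Across all 208 miRNAs, likeness of course was measured as the distance between log2 CPM profiles centred over the 3 libraries. Points share only 3 libraries, so this is a description. miR-127 and miR-299 were each other's nearest, at a distance of 0.13, followed for miR-127 by miR-331-3p (0.37) and miR-374b-5p (0.42). For miR-299 the next were miR-4334-3p (0.45) and miR-331-3p (0.45). Among the 208, miR-758 had no close match, with miR-127 nearest at 1.27, then miR-331-3p (1.33) and miR-299 (1.39). The scarcer cluster miRNAs, such as miR-382, miR-323 and miR-411, were under the minimum and were not searched, so closer matches among them are not excluded.

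For the other members the nearest miRNAs came from outside the cluster. Of the cluster, only the 6 members were among the 208 searched, so nearly all candidates were from outside it. Those of miR-136 were miR-374a-3p (0.06), miR-19b (0.09) and miR-499-5p (0.10), and the distance from miR-136 to another member was 1.59 at the least. Those of miR-369 were miR-9851-3p (0.13), miR-30d (0.17) and miR-365-3p (0.26), and those of miR-370 were miR-15b (0.17), miR-10b (0.26) and miR-490 (0.28). Such distances show nothing about shared function or control.

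Markers of other cell types also differed between the libraries. The 5 leucocyte miRNAs summed to 10877 CPM in the Enshi black library, 3651 CPM in the wild boar library and 20806 CPM in the Large White library, TMM-scaled. The 4 stellate cell and fibroblast miRNAs summed to 27499, 24096 and 22835 CPM, the 2 endothelial ones to 16284, 12169 and 10080 CPM, and the 2 smooth muscle ones to 25249, 19414 and 18994 CPM in the Enshi black, wild boar and Large White libraries. The 2 hepatocyte miRNAs summed to 284715, 366642 and 536153 CPM, the 3 red cell ones to 4114, 3114 and 5324 CPM, and the 5 striated muscle ones to 229.8, 176.3 and 394.9 CPM in the same order. On library totals the red cell sums were 4944, 3356 and 4112 CPM in that order, so the Enshi black library was then highest. The size of the other differences also depends on scaling. The stellate cell and fibroblast sums were then 33044, 25962 and 17638 CPM, and the hepatocyte sums 342123, 395033 and 414119 CPM. Single markers can differ from their list: leucocyte miR-150 had an Enshi black over Large White log2 ratio of 0.18, TMM-scaled, beside a list median of −0.56. No marker was at 0 in any library. Their part in the differences of the cluster was not tested, and in bulk liver fewer cells of a type and less RNA per cell cannot be told apart.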

How the data were processed

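Small RNA of liver was sequenced in 1 library per breed, per the labels' protocols. The build is named as Sscrofa 10.2 in the submitters' processing notes. For the aligner, the counter and the miRNA annotation, nothing is stated in the labels or headers. The deposited files hold 486 rows, each with an expected count for a pair of mature miRNA and precursor, and fractions where reads match more than 1 entry. The RPM values the authors also deposited are those counts per 1000000 of a library's sum and were not used.

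Counts were summed per mature name and rounded. 6 names that repeat the reads of another name were left out, which leaves 405 names and totals of 7730934 (Enshi black), 7824836 (wild boar) and 7343033 (Large White). CPM were scaled by TMM factors of 1.20, 1.08 and 0.772 for these libraries (edgeR 4.0.16, R 4.3.3). The minimum of 10 mean CPM was applied before TMM scaling. Ratios carry exact conditional-binomial intervals, levels exact Poisson intervals, shares Clopper-Pearson intervals, and relative ratios conditional odds ratio intervals, all at 95%. The floor for a count of 0 is 3 counts. Reads carry no molecular identifiers, and ligation bias makes counts of different miRNAs only roughly comparable. The interval code was tested on simulated data.

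Profiles used a prior of 0.5 counts. Named were the 6 members, other cluster miRNAs with at least 10 reads in 1 library and the 3 nearest profiles per member. miR-376b, miR-381, miR-432-3p, miR-487b and miR-494 were named after their counts were seen. The members and lists were chosen with earlier results of these data known. Alternatives were library totals, totals that leave miR-122 out, size factors from DESeq2 1.42.0, a minimum of 0 or 100 mean CPM, a 4-fold threshold, thinned libraries, other denominators and all names for ranks. Taking miR-369 from 1 of its 2 rows was added after seeing the data.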

Additional observations from a re-analysis of the deposited data

How the results depend on the processing

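The direction of each member's ratio was the same under the alternatives run, except that miR-136 in Enshi black over Large White had a log2 ratio of 0.0093 on library totals, where the median of all 208 miRNAs was 0.60. In Enshi black over Large White, the number of members past 2-fold was 2 after TMM scaling, 5 on library totals and 4 on totals without miR-122, and the median log2 ratio was 1.43 and 1.26 on these. Of all 208 miRNAs, 6, 57 and 37 were higher and 21, 6 and 8 lower in the same order. Their median was 0.60 on library totals and 0.43 without miR-122. A change of scaling shifts every ratio of a comparison by the same amount. The count of members in Enshi black over Large White was 0 among those of at least 100 mean CPM, which leaves miR-127 alone, and 1 at 4-fold. In wild boar over Large White, the members' median was 2.31 on library totals, 2.27 without miR-122 and 2.38 for miR-127 alone. The median of all 208 was 0.46 on library totals and 0.42 without miR-122. The count of members was 1 for miR-127 alone and 3 at 4-fold. In Enshi black over wild boar, the count was 1 and the median −1.51 for miR-127 alone, and the count was 0 at 4-fold. No share over all miRNAs is given at 4-fold or for at least 100 mean CPM. Set against the sum of the other members in place of miR-127, miR-299 had an Enshi black over Large White relative ratio of 1.10, beside 0.90 to miR-127, with 1 inside both intervals. In that setting the miR-299 intervals of wild boar over Large White (1.58, 1.08 to 2.38) and Enshi black over wild boar (0.70, 0.54 to 0.90) left out 1, as did that of miR-370 in Enshi black over Large White (1.89, 1.21 to 3.03). Those of miR-370 in wild boar over Large White (0.71, 0.45 to 1.15) and of miR-369 in Enshi black over wild boar (1.22, 0.96 to 1.56) then held 1. Taking miR-369 from 1 of its 2 rows leaves out part of its reads and changed no call. It brought the share of miR-369 to 2.84% in the Enshi black, 2.36% in the wild boar and 3.37% in the Large White library. No paired analysis was possible because each breed has 1 library. Leaving out a library would leave a breed with none. Depth limits the members with fewest reads, miR-758 with 18 and miR-370 with 26 reads in the Large White library.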
